A study of Homo sapiens with 10 samples.

Results

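HDAC3 and the partners with which it forms the NCoR co-repressor complex were followed by RNA level in MM.1S, an established line of human multiple myeloma. The members were named by gene: the deacetylase HDAC3, the scaffold NCOR1, the WD40-repeat adaptors TBL1X and TBL1XR1, and the subunit GPS2. Of these 5 genes, 4 had a probe set with a single gene symbol in the platform annotation, out of 19775 genes so measured, and 14 probe sets read them. HDAC3 and GPS2 were read by 1 probe set each, TBL1X and TBL1XR1 by 6 each. NCOR1 was not analysed here. Where a gene had several probe sets, the one with the highest mean over the 10 arrays led.

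Total RNA was taken 48 h after lentiviral delivery of a short hairpin RNA and hybridized to an Affymetrix 3' expression array. The 10 arrays formed 5 groups of 2. Control cells received shLuc, a hairpin against luciferase, which the labels call the control of the HDAC3 hairpins. HDAC3 was targeted by shHDAC3#1 and shHDAC3#2, and DNMT1, the maintenance DNA methyltransferase, by shDNMT1#1 and shDNMT1#2. Every group, the control included, was thus infected and carried a hairpin, and uninfected MM.1S cells were not analysed here. All arrays came from 1 cell line, and no label says whether a group's 2 arrays were separate cultures. The p-values therefore cover only the spread among these arrays, possibly technical in origin.

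In this complex, NCoR is the platform that binds unliganded nuclear receptors and other DNA-bound repressors. Its deacetylase activation domain binds HDAC3 and, with inositol phosphate as a cofactor, switches on its catalytic activity, so that acetyl groups are removed from histones at the bound gene. TBL1X and TBL1XR1 are close paralogs that tether the complex to chromatin and take part in exchanging co-repressors for co-activators, and GPS2 bridges them to the scaffold.

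The start regions of the 4 measured genes are shown so that those of a gene that fell, TBL1XR1, and of its paralog that was not called, TBL1X, can be read side by side. The 250 bases upstream of the first listed start of each gene, from RefSeq (GRCh38.p14), are written 5' to 3' along the gene's strand. Capitals mark the GC box, GGGCGG on either strand.
HDAC3, chr5:141636850-141637099, minus strand: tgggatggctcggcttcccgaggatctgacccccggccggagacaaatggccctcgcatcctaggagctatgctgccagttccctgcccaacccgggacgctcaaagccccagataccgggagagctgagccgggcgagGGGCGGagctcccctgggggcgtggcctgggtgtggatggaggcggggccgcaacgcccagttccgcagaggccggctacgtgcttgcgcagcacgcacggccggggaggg
TBL1XR1, chr3:177197483-177197732, minus strand: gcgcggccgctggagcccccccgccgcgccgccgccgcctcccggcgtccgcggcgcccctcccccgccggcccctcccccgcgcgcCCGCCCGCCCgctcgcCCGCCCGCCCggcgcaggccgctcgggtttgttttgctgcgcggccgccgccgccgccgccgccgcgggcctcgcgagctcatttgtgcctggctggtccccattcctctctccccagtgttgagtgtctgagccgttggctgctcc
TBL1X, chrX:9463045-9463294, plus strand: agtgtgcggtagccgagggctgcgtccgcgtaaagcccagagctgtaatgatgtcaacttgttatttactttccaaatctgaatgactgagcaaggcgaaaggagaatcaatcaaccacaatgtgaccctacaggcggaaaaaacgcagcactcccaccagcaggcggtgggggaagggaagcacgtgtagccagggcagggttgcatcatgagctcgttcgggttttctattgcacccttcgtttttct
GPS2, chr17:7315361-7315610, minus strand: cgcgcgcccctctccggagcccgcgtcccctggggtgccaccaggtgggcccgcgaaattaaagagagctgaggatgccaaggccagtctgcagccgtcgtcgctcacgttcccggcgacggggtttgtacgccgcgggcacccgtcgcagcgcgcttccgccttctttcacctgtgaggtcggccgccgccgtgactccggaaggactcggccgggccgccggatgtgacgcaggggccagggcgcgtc
The TBL1XR1 region held 42 CpG dinucleotides and 4 GC boxes, of which some share bases. The HDAC3 region held 22 CpG and 1 GC box, the GPS2 region 35 CpG and 0 GC boxes, and the TBL1X region 13 CpG and 0 GC boxes. The median over 35116 promoter windows of this length was 11 CpG, and 42.6% of them held a GC box. Searches on both strands, counting overlaps, also covered the E-box CACGTG, the CRE TGACGTCA, the ETS motif CCGGAAGT, CCAAT, and the E2F motif TTTCCCGC. These occurred in 6.34%, 1.65%, 3.42%, 32% and 1.39% of all windows. The only match among the 4 windows shown was 1 E-box in that of TBL1X. TBL1X and TBL1XR1 each had a second listed start, whose windows held 26 and 25 CpG and 2 and 3 GC boxes. Such matches describe the letters only.

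The deposited values were log2 signals. Replicate arrays had a Pearson's r of 0.994 to 0.996, and no pair held duplicate data. The SD of the log2 values over an array was 1.93 to 1.94 in shLuc and 1.84 to 1.91 in the knockdown arrays. The 3' minus 5' difference of the ACTB probe sets, a measure of RNA integrity, averaged 1.00 in shHDAC3#1 and 0.71 to 0.74 in the other groups. The same difference for GAPDH set shHDAC3#1 less apart, at 0.5282 and 0.5145 against 0.3468 to 0.5077 in the other arrays. All 8 plasma cell markers, among them SDC1, IRF4 and XBP1, lay above the median gene (6.39). Their mean over the list was 10.33 to 10.35 in shLuc, 9.96 to 10.11 in shHDAC3#1, 10.08 to 10.17 in shHDAC3#2, 9.63 to 9.79 in shDNMT1#1 and 9.77 to 9.81 in shDNMT1#2. Of the markers of other cell types, 2 of 3 for B cells, 1 of 4 for T cells, 1 of 3 for myeloid cells, 1 of 4 for epithelial cells and 3 of 4 for fibroblasts also lay above the median gene. These were PAX5 (7.61) and CD22 (8.01), CD3D (6.66), CD14 (6.73), KRT8 (7.29), and COL1A1 (8.55), PDGFRB (7.98) and DCN (6.88), as means over the arrays. The dimmest of each list were MS4A1 (3.06), CD2 (4.25), LYZ (3.94), EPCAM (3.96) and COL1A2 (4.70). The list means were 6.12 to 6.40 over the arrays for B cells, 4.85 to 5.10 for T cells, 5.23 to 5.45 for myeloid cells and 6.90 to 7.13 for fibroblasts. The epithelial list differed by group, with 5.90 to 6.15 in shDNMT1#2 against 5.62 to 5.64 in shLuc, 5.55 to 5.69 in the HDAC3 knockdown arrays and 5.58 to 5.59 in shDNMT1#1. EPCAM itself ran from 3.53 to 5.01. The part of RNA integrity, of the lower plasma cell markers and of the higher epithelial markers in the changes below was not tested. In bulk RNA, fewer cells of a type and less RNA per cell cannot be told apart.

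**Figure D1:**
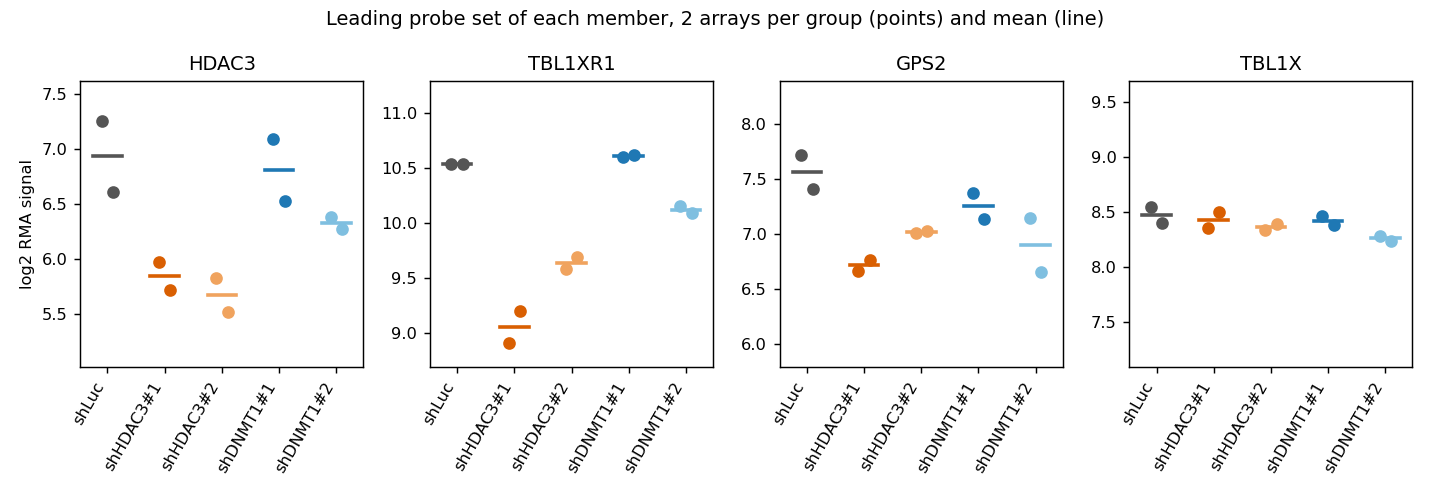
Log2 signal of the leading probe set of HDAC3, TBL1XR1, GPS2 and TBL1X in each of the 10 arrays (points) with the mean of each group of 2 (line). TBL1XR1 lay at 8.91 to 9.69 in the 4 HDAC3 knockdown arrays against 10.53 and 10.54 in shLuc, whereas TBL1X stayed between 8.23 and 8.54 throughout.

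HDAC3, the catalytic subunit and the target of its hairpins, was lower in every HDAC3 knockdown array. Its log2 signal was 7.26 and 6.61 in the shLuc arrays, 5.97 and 5.72 with shHDAC3#1, and 5.83 and 5.52 with shHDAC3#2. With the DNMT1 hairpins it was 7.09 and 6.53 for shDNMT1#1 and 6.39 and 6.28 for shDNMT1#2. The 4 HDAC3 knockdown arrays did not overlap with shLuc. How many of all genes were separated likewise was not counted, for this gene or for the members below. The shDNMT1#1 arrays overlapped with shLuc, and the shDNMT1#2 arrays lay just below it.

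With its own hairpins, HDAC3 dropped to 44.2% of control (95% interval 35.2% to 55.5%), a log2 change of -1.18 ± 0.16 (SE, n = 4 and 2; limma adjusted p = 1.2e-05). A gene was called at a Benjamini-Hochberg adjusted p under 0.05 over all genes. HDAC3 was not called when variation between hairpins counted as error, through a random block for the hairpin (limma adjusted p = 0.11). Nor was it with the SD of each array as a covariate (-0.98, limma adjusted p = 0.36). Of all genes, 0.369% were called with the block and 0.576% with the covariate, against 19.2% without either. Both shLuc arrays had a higher SD than any knockdown array, so the covariate overlaps with the contrast against shLuc and the 2 cannot be fully told apart. In DNMT1 knockdown HDAC3 changed by -0.36 ± 0.16 and was not called (limma adjusted p = 0.11). With shDNMT1#2 alone it fell by 0.60 (adjusted p = 0.019), and with shDNMT1#1 alone the change was -0.12 (adjusted p = 0.73). The shDNMT1#2 call was lost without shLuc replicate 1 (-0.28, adjusted p = 0.42), without its own replicate 1 (-0.66, adjusted p = 0.059) and without its replicate 2 (-0.55, adjusted p = 0.11). The DNMT1 knockdown value was called once shDNMT1#1 replicate 1 was left out (-0.50, adjusted p = 0.012), and likewise when shLuc replicate 2 was (-0.69, adjusted p = 0.015). The 2 shLuc arrays of HDAC3 differed by more than those of TBL1XR1, at an SD of 0.46 against 0.0049. The probe set that reads HDAC3 is of a kind that can cross-hybridize.

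Among the WD40-repeat adaptors, TBL1XR1 fell in HDAC3 knockdown and its paralog TBL1X was not called. The log2 signal of TBL1XR1 was 10.53 and 10.54 in shLuc, 8.91 and 9.20 with shHDAC3#1, and 9.58 and 9.69 with shHDAC3#2. It was 10.59 and 10.62 with shDNMT1#1 and 10.15 and 10.09 with shDNMT1#2. All HDAC3 knockdown arrays lay below every other array. The shDNMT1#1 arrays lay just above shLuc, and the shDNMT1#2 arrays between shLuc and the HDAC3 knockdown.

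TBL1XR1 fell to 43.8% of control in HDAC3 knockdown, a log2 change of -1.19 ± 0.082 (SE, n = 4 and 2; limma adjusted p = 2.5e-09). The random block for the hairpin and the array SD as a covariate left it called (adjusted p = 0.047 and 0.0014). Among the 19775 genes this change ranked 71 from the lowest, next to HDAC3 itself at 74. By hairpin, TBL1XR1 fell by 1.48 with shHDAC3#1 (limma adjusted p = 2.9e-10) and by 0.90 with shHDAC3#2 (limma adjusted p = 7.1e-07). In DNMT1 knockdown it changed by -0.17 ± 0.082 and was not called (limma adjusted p = 0.14). That mean joined 2 unlike hairpins, with 0.072 for shDNMT1#1 (adjusted p = 0.69) and -0.42 for shDNMT1#2 (adjusted p = 0.0025). After a further quantile normalization the shDNMT1#2 value was -0.15 (adjusted p = 0.11), so that this call depended on the scaling.

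The 2 knockdowns share the shLuc arrays, so their difference was tested directly. A shared run of the 10 arrays is not stated. Had the DNMT1 arrays been run apart, the run could not be told apart from the target, here or in DNMT1 knockdown against shLuc. TBL1XR1 was lower in HDAC3 than in DNMT1 knockdown by a log2 difference of -1.02 ± 0.066 (limma adjusted p = 1.4e-09), and HDAC3 by -0.81 ± 0.13 (limma adjusted p = 0.00017). For GPS2 the difference was -0.21 ± 0.098 and was not called (limma adjusted p = 0.22). For TBL1X it was 0.056 (limma adjusted p = 0.70). With both hairpins of a target taken as 1 group, neither the TBL1XR1 difference (limma adjusted p = 0.061) nor that of HDAC3 (limma adjusted p = 0.15) was called. Of all genes, 0.147% were called in that fit, against 9.59% with the hairpins kept apart.

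**Figure D2:**
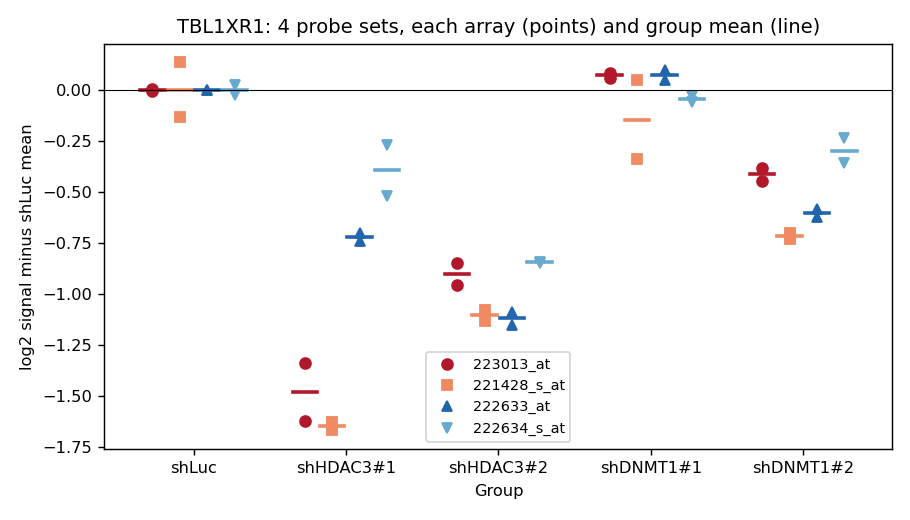
Log2 signal minus the shLuc mean for the 4 TBL1XR1 probe sets that differed between the HDAC3 hairpins, for each array (points) and group mean (line). With shHDAC3#1 the probe sets 223013_at and 221428_s_at lay at -1.48 and -1.65 and the other pair at -0.72 and -0.40, whereas with shHDAC3#2 the 4 lay between -1.12 and -0.85.

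TBL1XR1 was read by 6 probe sets, of which 5 were lower in HDAC3 knockdown, and the remaining one, 233633_at, was dim with a mean of 3.15 and a change of 0.10. Over all probe sets, 10% were called lower in that comparison. The 5 that fell changed by -0.62 to -1.38. In DNMT1 knockdown 2 of 6 were lower, 221428_s_at by 0.43 and 222633_at by 0.27, against a background of 9.01%. With shDNMT1#2, 5 of 6 were lower, against a background of 10.5%. With shDNMT1#1, 0 of 6 were called by limma in either direction, and 0 had an unadjusted p under 0.05, against a background of 4.94% called.

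The size of the fall depended on the probe set and the hairpin together. The probe set 223013_at fell by 1.48 with shHDAC3#1 and 0.90 with shHDAC3#2, and 221428_s_at by 1.65 and 1.11. The order was the reverse for 222633_at, with falls of 0.72 and 1.12, and for 222634_s_at, with 0.40 and 0.85. For 235890_at the falls were 1.09 and 0.78, and their difference was not called (limma adjusted p = 0.47). The differences between hairpins were called in both directions: 2 of 6 probe sets lower with shHDAC3#1 and 2 of 6 higher, against backgrounds of 5.84% and 2.63%.

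The split was also laid out within single arrays, from the same values, so this is no separate support for it. The signal of 223013_at minus that of 222633_at was 1.16 in both shLuc arrays, 0.235 and 0.559 with shHDAC3#1, and 1.35 and 1.40 with shHDAC3#2. It was 1.17 and 1.15 with shDNMT1#1 and 1.36 and 1.34 with shDNMT1#2. The shHDAC3#1 arrays were the lowest and did not overlap with the other 8. The signal of 221428_s_at minus that of 222634_s_at was -1.26 and -1.46 with shHDAC3#1 and -0.57 to 0.055 in the other 8 arrays. These probe sets were set against each other after their values were seen, and the difference is one within an array, not a level. The positions of the probe sets on the transcript are not in the tables used here. As shHDAC3#1 is also the group with the ACTB difference of 1.00, the part of RNA integrity in this split was not tested.

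**Figure D3:**
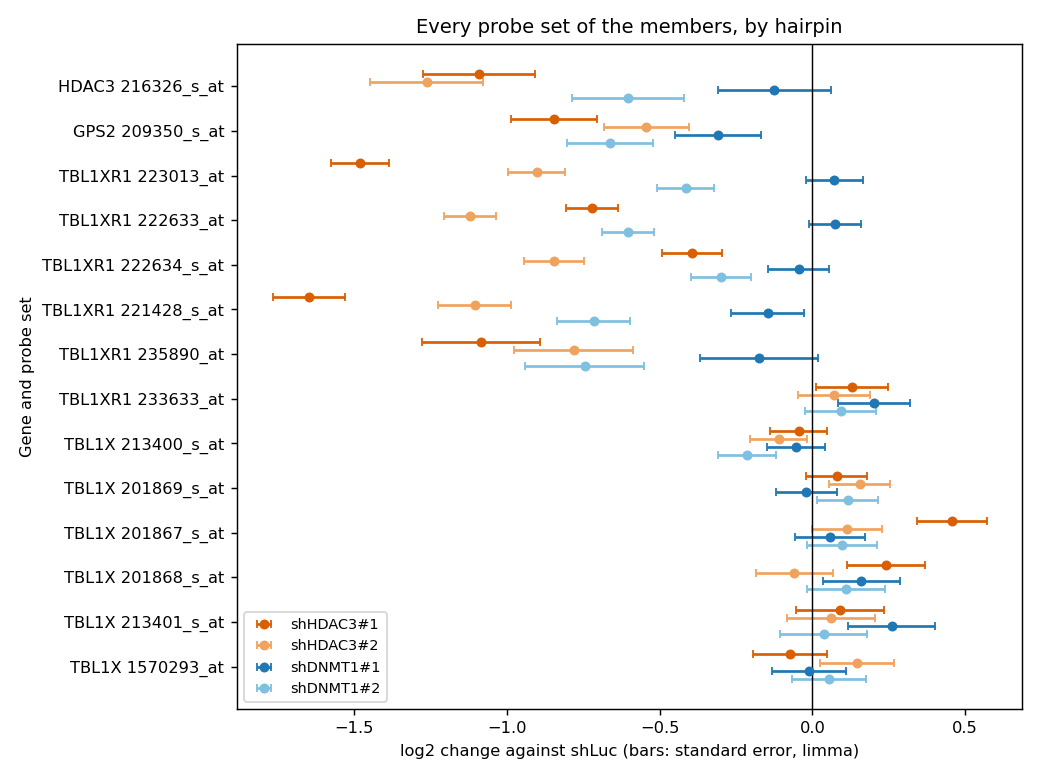
Log2 change against shLuc of every probe set of the members, for each hairpin. TBL1XR1 probe sets other than 233633_at lay below 0 with both HDAC3 hairpins, and those of TBL1X between -0.11 and 0.46 with the same hairpins.

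TBL1X, the paralog of TBL1XR1, was not called in either knockdown. Its leading probe set read 8.54 and 8.40 in shLuc, 8.36 and 8.50 with shHDAC3#1, 8.33 and 8.39 with shHDAC3#2, 8.46 and 8.38 with shDNMT1#1, and 8.28 and 8.23 with shDNMT1#2. Both shDNMT1#2 arrays lay below every other array. The shHDAC3#2 arrays lay below both shLuc arrays, and the arrays of shHDAC3#1 and shDNMT1#1 overlapped with shLuc.

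The log2 change of TBL1X was -0.078 ± 0.082 in HDAC3 knockdown (limma adjusted p = 0.52), with a 95% interval of -0.25 to 0.094. In DNMT1 knockdown it was -0.13 ± 0.082 (limma adjusted p = 0.26). Its sign was not stable, because quantile normalization gave 0.082 and 0.013 for the 2 knockdowns. Across its 6 probe sets the changes ran from -0.078 to 0.28 in HDAC3 knockdown and -0.13 to 0.15 in DNMT1 knockdown, and limma called 0 of 6 in each, against 12.3% and 13.3% of all probe sets. At an unadjusted p under 0.05 there was 1 in HDAC3 knockdown and 0 in DNMT1 knockdown, and a filter on dim probe sets gave 1 call in HDAC3 knockdown. The probe set 201867_s_at was called with shHDAC3#1 alone (0.46, limma adjusted p = 0.0092), where 4.96% of all probe sets were higher.

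GPS2, which links the adaptors to the scaffold and limits inflammatory gene activation, was lower in HDAC3 knockdown than in control. Its signal was 7.72 and 7.41 in shLuc, 6.67 and 6.77 with shHDAC3#1, and 7.01 and 7.03 with shHDAC3#2. With the DNMT1 hairpins it was 7.37 and 7.14 for shDNMT1#1 and 7.15 and 6.66 for shDNMT1#2. None of the 8 knockdown arrays reached the lower shLuc array, but the share of all genes with such a separation was not counted.

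GPS2 fell to 61.8% of control in HDAC3 knockdown (-0.70 ± 0.12 on the log2 scale, limma adjusted p = 0.00021) and to 71.4% in DNMT1 knockdown (-0.49 ± 0.12, limma adjusted p = 0.0062). Neither call held with the random block for the hairpin (limma adjusted p = 0.21 and 0.37), where 0.369% and 0.157% of all genes were called. With the array SD as a covariate the values were -0.18 (adjusted p = 1) and 0.047, so that the second turned its sign. That covariate overlaps with the contrast against shLuc, since both shLuc arrays had a higher SD than any knockdown array. By hairpin the changes were -0.85 and -0.54 for HDAC3 (limma adjusted p = 0.00011 and 0.011), -0.31 for shDNMT1#1 (not called, adjusted p = 0.20) and -0.66 for shDNMT1#2 (adjusted p = 0.0013). Without shLuc replicate 1, GPS2 was no longer called in DNMT1 knockdown (-0.33, adjusted p = 0.28), with shDNMT1#2 (-0.51, adjusted p = 0.065) or with shHDAC3#2 (-0.39, adjusted p = 0.31). The shDNMT1#2 call was also lost without its replicate 2 (-0.42, adjusted p = 0.059), and the shHDAC3#2 call without its replicate 1 (-0.54, adjusted p = 0.085).

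Counted by member, 3 of the 4 measured genes were called lower in HDAC3 knockdown, where 15.3% of all genes were. In DNMT1 knockdown 1 of 4 was called lower, against a background of 13.5%, and in the difference between the knockdowns 2 of 4, against 6%. HDAC3, the target of its own hairpins, was among those counted in HDAC3 knockdown, with either HDAC3 hairpin and in the difference. Its fall was aimed at by the design, so these counts are not of its partners alone. After a further quantile normalization, 12.4% of all genes were lower and 9.89% higher in HDAC3 knockdown, against 15.3% and 3.96% before, and 11.6% and 9.95% in DNMT1 knockdown, against 13.5% and 6.66%. No member was called higher in these 3 comparisons by limma, and the count at an unadjusted p under 0.05 was also 0. By hairpin, 3 of 4 were lower with shHDAC3#1 (background 16.6%), 3 with shHDAC3#2 (9.54%), 0 with shDNMT1#1 (6.81%, with 1 at an unadjusted p under 0.05) and 3 with shDNMT1#2 (15.2%). Between hairpins of 1 target TBL1XR1 alone was called, with a log2 difference of -0.58 for shHDAC3#1 against shHDAC3#2 (8.85% of genes were lower) and 0.49 for shDNMT1#1 against shDNMT1#2 (8.39% were higher).

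Members differed in which arrays moved them. Over the 10 arrays, which share the group structure, Pearson's r was 0.80 between HDAC3 and TBL1XR1, 0.77 between HDAC3 and GPS2, 0.76 between TBL1XR1 and GPS2, and 0.12 between TBL1X and TBL1XR1. Among 9809 genes at or above the median level, those most like HDAC3 were PHF10 (r = 0.96), a chromatin remodelling subunit, DCAF13 (0.96) and TP53INP1 (0.95), which is p53-induced. In HDAC3 knockdown these changed by -0.27 (not called, limma adjusted p = 0.066), -0.46 and -1.16, against -1.18 for HDAC3, so a high r did not mean an equal change. TBL1XR1 was closest to DERL2 (0.97), of endoplasmic reticulum degradation, SEC61A1 (0.97), the translocon pore, and CDC23 (0.97), of the anaphase-promoting complex. Their changes in HDAC3 knockdown were -0.65, -0.51 and -1.24 in that order, against -1.19 for TBL1XR1. GPS2 was closest to HAUS3 (0.97), the linker histone H1-2 (0.97) and UBXN4 (0.96). TBL1X was closest to ALDH3A2 (0.96), CMPK1 (0.95) and FAM168B (0.95).

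**Figure D4:**
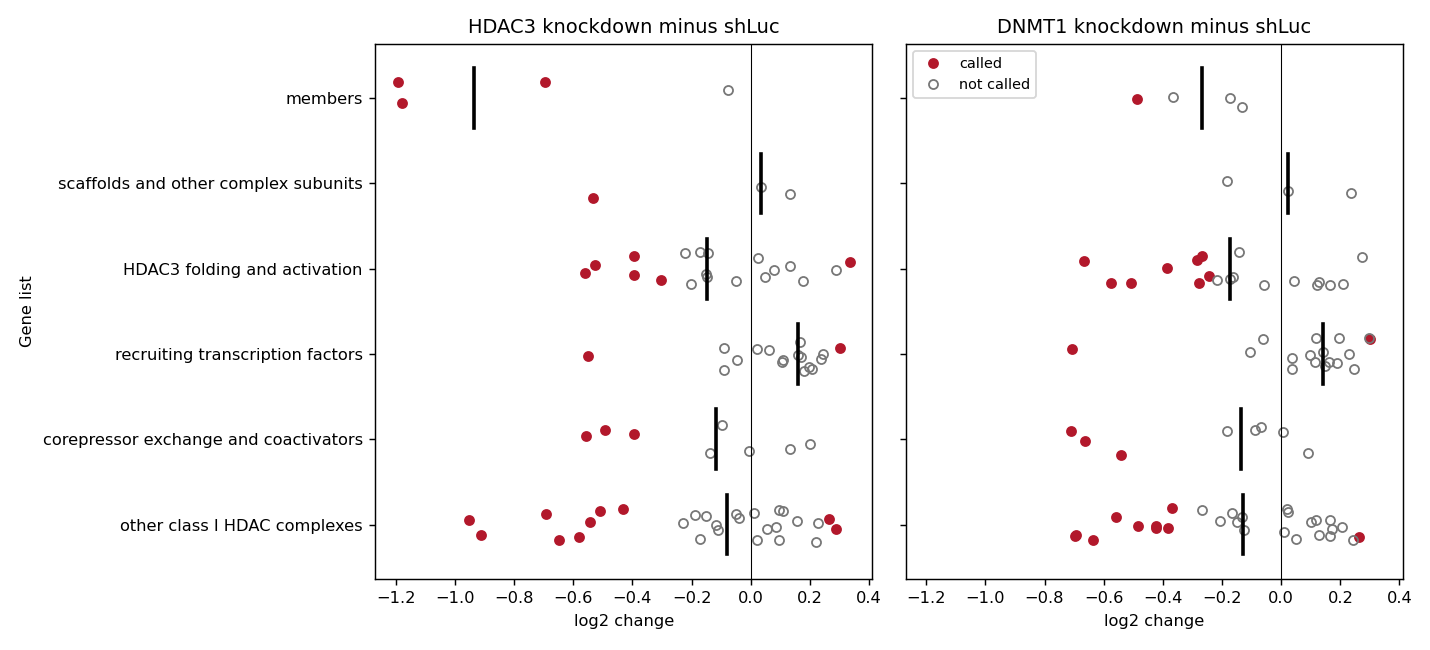
Log2 change against shLuc of the members and of 5 lists of pathway genes in each knockdown, 1 point per gene, filled where called, with the median of each list as a line. In HDAC3 knockdown TBL1XR1 and HDAC3 lay at -1.19 and -1.18, and the lowest listed gene, MBD2, at -0.95.

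The other genes of the pathway were taken as lists. Of 3 other subunits measured, 1 was lower in HDAC3 knockdown, where 15.3% of all genes were. ZBTB33, the methyl-CpG binding protein Kaiso that recruits NCoR, fell by 0.53 (limma adjusted p = 0.00022). This came from shHDAC3#1, where its mean was 7.20 against 8.29 in shLuc, whereas shHDAC3#2 lay at 8.33, and the hairpins differed by -1.13 (limma adjusted p = 1.3e-07). CORO2A, an actin-binding subunit, changed by 0.13 and 0.24 in the 2 knockdowns and was not called.

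Genes that fold HDAC3 or act on its activity, in either direction, include the TRiC chaperonin, inositol phosphate kinases, casein kinase 2 and protein phosphatase 4. Of 19 measured, 5 were lower and 1 higher in HDAC3 knockdown (median -0.15, against 0.054 over all genes), and 8 lower and 0 higher in DNMT1 knockdown by limma (median -0.17, against 0.066; 2 higher at an unadjusted p under 0.05). After quantile normalization these became 4 lower and 5 higher, and 4 lower and 2 higher. The share of all genes was 15.3% lower and 3.96% higher in HDAC3 knockdown and 13.5% lower and 6.66% higher in DNMT1 knockdown. The phosphatase subunits PPP4R1 (-0.56 and -0.58) and PPP4R2 (-0.53 and -0.67) fell in both knockdowns, although another PPP4R2 probe set changed by -0.072 and -0.12. CSNK2B, the regulatory subunit of casein kinase 2, fell by 0.40 and 0.28, each time mainly with 1 hairpin. Against shLuc it changed by -0.67 with shHDAC3#1, -0.12 with shHDAC3#2, -0.088 with shDNMT1#1 and -0.48 with shDNMT1#2, and the hairpins of each target differed (limma adjusted p = 0.0016 for HDAC3 and 0.026 for DNMT1). CCT3, a chaperonin subunit, fell by 0.51 in DNMT1 knockdown and changed by 0.077 in HDAC3 knockdown, and the knockdowns differed by 0.58 (limma adjusted p = 1.3e-06), with group means of 10.37 for shDNMT1#1 and 9.15 for shDNMT1#2 against 10.27 in shLuc.

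Transcription factors that recruit the complex were mostly not called: 1 of 17 was lower and 1 higher in each knockdown (medians 0.16 and 0.14, against 0.054 and 0.066 over all genes). Of all genes, 15.3% and 13.5% were lower and 3.96% and 6.66% higher. After quantile normalization 1 was lower and 3 higher in HDAC3 knockdown. RBPJ, the DNA-binding protein of Notch signalling, fell by 0.55 in HDAC3 knockdown (limma adjusted p = 0.00033), with a mean of 6.90 for shHDAC3#1, 8.12 for shHDAC3#2 and 8.06 for shLuc, and the hairpins differed by -1.22 (limma adjusted p = 1.1e-07). SPEN, a co-repressor of Notch target genes, fell by 0.71 in DNMT1 knockdown (limma adjusted p = 1e-04) and changed by -0.092 in HDAC3 knockdown, and the knockdowns differed by 0.62 (limma adjusted p = 1e-04). That HDAC3 knockdown value joined 2 unlike hairpins, since SPEN changed by 0.26 with shHDAC3#1 (limma adjusted p = 0.15) and fell by 0.45 with shHDAC3#2 (limma adjusted p = 0.029), and these differed by 0.71 (limma adjusted p = 0.00054). In DNMT1 knockdown another SPEN probe set changed by -0.68 (limma adjusted p = 0.00042). A dimmer pair changed by 0.033 and -0.13 there and was not called. NR1D2, a haem-sensing repressor of the clock, rose by 0.30 in HDAC3 knockdown (limma adjusted p = 0.039). PPARG, a lipid-sensing receptor, rose by 0.30 in DNMT1 knockdown (limma adjusted p = 0.045). Neither rise was called once arrays were centred on their medians.

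Of 8 measured genes that exchange co-repressors for co-activators, 3 were lower in each knockdown and 0 higher by limma, with 1 and 0 higher at an unadjusted p under 0.05. The share of all genes called lower was 15.3% in HDAC3 and 13.5% in DNMT1 knockdown. NCOA2, a nuclear receptor co-activator, fell by 0.49 and 0.71, while its other probe sets, dimmer with means of 3.47 to 4.59, were not called. SIAH2, a ubiquitin ligase that degrades NCoR, fell by 0.56 and 0.66, and did so unevenly: group means were 7.70 in shLuc, 6.72 for shHDAC3#1, 7.57 for shHDAC3#2, 6.61 for shDNMT1#1 and 7.47 for shDNMT1#2. SIAH1, its paralog, fell by 0.39 and 0.54, while another SIAH1 probe set changed by 0.036 and -0.31.

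The last list held the other class I deacetylases and their complexes. These were mainly SIN3, NuRD and CoREST, with HDAC8, DNTTIP1, MIDEAS and TRERF1 also listed. Of 28 measured genes, 8 were lower and 2 higher in HDAC3 knockdown, and 9 lower and 1 higher in DNMT1 knockdown. Of all genes, 15.3% were lower and 3.96% higher in HDAC3 knockdown, and 13.5% and 6.66% in DNMT1 knockdown. The list medians were -0.079 and -0.13, against 0.054 and 0.066 over all genes. After quantile normalization the list had 8 lower and 3 higher, and 7 lower and 4 higher, with medians of 0.035 and -0.0072. MBD2, the methyl-CpG binding subunit of NuRD, fell by 0.95 (limma adjusted p = 3e-07) and by 0.70 (limma adjusted p = 1.4e-05). Its other probe sets, dim with means of 2.86 to 4.12, were not called in either knockdown. RBBP4, a histone-binding subunit of SIN3 and NuRD, fell by 0.69 and 0.42. SAP30, a SIN3 subunit, fell by 0.91 and 0.69, although none of its other 3 probe sets was called lower. One of them, the dimmest, changed by 0.21 in HDAC3 knockdown and rose by 0.36 in DNMT1 knockdown (limma adjusted p = 0.037). The remaining pair changed by -0.18 and -0.19 in HDAC3 and by -0.12 each in DNMT1 knockdown. RCOR3, a CoREST scaffold, fell by 0.65 in HDAC3 knockdown and changed by -0.27 in DNMT1 knockdown without being called. Its other probe sets, both dimmer, changed by -0.44 and -0.24 in HDAC3 knockdown and were not called (limma adjusted p = 0.069 and 0.16). The DNMT1 hairpins differed by 0.84 for the leading RCOR3 probe set (limma adjusted p = 3.7e-05). It changed by -0.69 with shDNMT1#2 (limma adjusted p = 0.00019) and was not called with shDNMT1#1 (0.15, limma adjusted p = 0.49).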

How the data were processed

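RNA was measured in 10 arrays. The deposited values are log2 signals made by the authors with RMA, per the submitters' processing notes. Neither its version nor a shared run of the 10 arrays is stated there. RMA quantile-normalizes between arrays, so a change common to most genes is not seen, and it compresses changes near background. Precision is limited by the number of arrays.

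Of 54675 probe sets, 41097 had a single symbol in the platform annotation, 1801 several and 11777 none. The brightest probe set by mean stood for each of 19775 genes. Genes, and separately all 54613 non-control probe sets, were fitted in R 4.3.3 with limma 3.58.1 (lmFit, eBayes with trend) in 1 model of 5 groups with 5 residual degrees of freedom, two-sided, with Benjamini-Hochberg adjustment. Knockdown effects averaged the 2 hairpins of a target against shLuc. The script was tested on simulated data.

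Members, lists and tests were chosen with earlier results of these data known. Genes were named as the members; the 3 genes most like each member by Pearson's r; and, per list, CORO2A and up to 4 called genes with the largest change. Alternatives covered scaling, filters, probe set choice, hairpin and replicate handling, and each array left out. Promoter sequences came from RefSeq. One item is not reported here.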

Additional observations from a re-analysis of the deposited data

Results flagged for a closer look

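The 2 knockdowns, or the 2 hairpins of a target, differed by limma's test of the difference itself for HDAC3 and TBL1XR1. Between the knockdowns, HDAC3 minus DNMT1, the log2 difference was -0.81 for HDAC3 and -1.02 for the leading probe set of TBL1XR1. The other TBL1XR1 probe sets gave -0.95 (221428_s_at), -0.66 (222633_at), -0.45 (222634_s_at) and -0.47 (235890_at).

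Between the HDAC3 hairpins, shHDAC3#1 minus shHDAC3#2, the leading TBL1XR1 probe set differed by -0.58 and 221428_s_at by -0.54, while 222633_at differed by 0.40 and 222634_s_at by 0.45. Between the DNMT1 hairpins, shDNMT1#1 minus shDNMT1#2, the leading probe set differed by 0.49, 221428_s_at by 0.57 and 222633_at by 0.68.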

How the results depend on the processing

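In HDAC3 knockdown 3 members were called, and 1 with the hairpin as a random block or the array SD as a covariate. The limma adjusted p of HDAC3 was then 0.11 (-1.18) and 0.36 (-0.98), and that of GPS2 0.21 (-0.70) and 1 (-0.18). GPS2 also reached only 0.081 (-0.70) with hairpins as 1 group. Of all genes, 19.2% were called without these settings, 0.369% with the block, 0.576% with the array SD and 1.83% with 1 group. Both shLuc arrays had a higher SD than any knockdown array, so that covariate overlaps with every contrast against shLuc. With each array left out, 3 members were called each time, at -1.50 to -0.85 for HDAC3, -1.26 to -1.12 for TBL1XR1 and -0.85 to -0.54 for GPS2. The difference between the knockdowns went from 2 members called to 0 with the random block (adjusted p = 0.097 for TBL1XR1 at -1.02 and 0.49 for HDAC3 at -0.81) and with 1 group (0.061 and 0.15), and ranged from 2 to 3 with an array left out (GPS2 -0.33 to -0.087). In DNMT1 knockdown the count of 1 became 0 with the array SD, the random block, 1 group or hairpin #1 alone, 3 with hairpin #2 alone, and 0 to 2 with an array left out. There GPS2 was 0.047 with the array SD, -0.49 with the block (adjusted p = 0.37) or 1 group (0.16), -0.31 with hairpin #1 and -0.64 to -0.33 with an array left out. HDAC3 was called there with hairpin #2 alone (-0.60), and ranged from -0.69 to -0.041 with an array left out. TBL1XR1 was 0.10 with the array SD, 0.072 with hairpin #1 and -0.42 with hairpin #2. For the difference between the knockdowns, 9.59% of all genes were called without these settings, 0.0303% with the block and 0.147% with 1 group. In DNMT1 knockdown the shares were 20.2%, 0.157% and 1.65%, with 0.602% for the array SD. They were 8.15% for hairpin #1 alone and 26.8% for hairpin #2 alone. The cause of these changes in calls and values was not tested.

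The labels give replicate numbers but do not say whether these pair the samples. Same-numbered deviations correlated above 0.1 in 2 of 10 group pairs (-0.34 to 0.27), and the main fit did not treat the numbers as pairs. A correlation over all genes cannot exclude pairing, so the question is not settled. With the replicate block the members called in DNMT1 knockdown rose from 1 to 2, because HDAC3 (-0.36) reached a limma adjusted p = 0.031. Of all genes, 18.1% were called with that block and 20.2% without it. In each of the 5 groups the HDAC3 signal of replicate 1 lay above that of replicate 2.

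Signs turned mainly for TBL1X, which was never called there. With the array SD its changes were 0.17 and 0.13 in the HDAC3 and DNMT1 knockdowns, 0.26, 0.087, 0.084 and 0.17 for the 4 hairpins in order, and -0.086 between the DNMT1 hairpins. The mean of probe sets gave 0.088 and 0.050, then 0.13, 0.051, 0.066 and 0.033. Quantile normalization gave 0.082 and 0.013, then 0.15, 0.019 and 0.039, with no turn for shDNMT1#2. Without probe sets that can cross-hybridize, it was 0.037 and 0.021, 0.15 for shHDAC3#2, 0.054 for shDNMT1#2, -0.22 between the HDAC3 hairpins and -0.066 between the DNMT1 hairpins. With an array left out, TBL1X ranged from -0.12 to 0.026 for shHDAC3#1, -0.12 to 0.018 for shDNMT1#1 and -0.0054 to 0.14 between the HDAC3 hairpins. For shDNMT1#1, HDAC3 ranged from -0.45 to 0.20 with an array left out, and TBL1XR1 was -0.0032 with the mean of probe sets, which also took its difference between HDAC3 hairpins to -0.086 (adjusted p = 0.64). With the array SD, GPS2 was 0.12 for shDNMT1#2 and -0.15 between the DNMT1 hairpins. Leaving out cross-hybridizing probe sets left no value for HDAC3 and GPS2.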
